A study of Mus musculus with 8 samples.

Results

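The genes described here build the phagophore, the cup-shaped membrane that closes into an autophagosome: the lipid transfer proteins Atg2a and Atg2b, the membrane protein Atg9a, the WIPI family (Wipi1, Wipi2, Wdr45 and Wdr45b), the endoplasmic reticulum membrane proteins Vmp1 and Tmem41b, and Zfyve1. Members were taken by gene symbol, with 1 probe set a gene, the brightest over the 8 arrays, and all 10 were found among 19938 genes tested. They were compared between 4 Hmgb1 deleted and 4 floxed control liver samples of male mice aged 8 weeks. Hmgb1 encodes an abundant chromatin protein, and the series title asks whether autophagy needs it in vivo. Both groups were littermates with floxed Hmgb1, on a C57Bl/6 background backcrossed 5 times per the protocol, and the deleted group also carried Cre under the albumin promoter, which is active in hepatocytes. Since only the titles of the deleted group name Cre, effects of Cre and of losing Hmgb1 cannot be told apart. The characteristics give stellate cells and Balb/c in place of whole liver and C57Bl/6. Albumin, the main secreted protein of hepatocytes, had log2 intensities of 13.26 to 14.03. In such bulk tissue, fewer cells of a type and less RNA per cell cannot be told apart.

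Autophagosome formation starts at endoplasmic reticulum sites rich in the lipid phosphatidylinositol 3-phosphate (PI3P). WIPI proteins bind PI3P there; WIPI2 recruits the enzyme complex that attaches LC3 to the membrane, and WDR45 and WDR45B help to place the ATG2 proteins. ATG2 is a rod with a groove through which lipids pass from the endoplasmic reticulum to the phagophore, while ATG9A on one side and VMP1 and TMEM41B on the other move lipids between the leaflets of the membrane. Hepatocytes use this pathway to recycle organelles and protein during fasting.

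The promoter windows of Atg2a and Atg2b are shown because the contrast between this pair is described below. Each sequence is the 250 bases before a start listed by RefSeq (GRCm38.p6), 5′ to 3′ on the strand of the gene. For both genes the RefSeq gene record begins inside the window, so that a further start lies upstream of the one used. Capitals mark CCAAT (the CCAAT box) and GGGCGG (the GC box), read on both strands, so that ATTGG and CCGCCC are marked too.
Atg2a, chr19:6241418-6241667, plus strand: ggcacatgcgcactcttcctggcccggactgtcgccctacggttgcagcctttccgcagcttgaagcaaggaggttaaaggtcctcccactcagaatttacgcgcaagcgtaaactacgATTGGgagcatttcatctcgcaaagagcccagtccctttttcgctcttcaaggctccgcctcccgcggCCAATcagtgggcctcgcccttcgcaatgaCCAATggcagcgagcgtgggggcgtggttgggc
Atg2b, chr12:105685242-105685491, minus strand: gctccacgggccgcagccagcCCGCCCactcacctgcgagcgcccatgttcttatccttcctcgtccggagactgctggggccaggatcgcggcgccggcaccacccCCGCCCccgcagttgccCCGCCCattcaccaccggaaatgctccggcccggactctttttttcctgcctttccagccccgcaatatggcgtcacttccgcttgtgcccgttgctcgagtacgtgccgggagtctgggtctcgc
The Atg2a window held 3 CCAAT matches and 0 GC boxes, and that of Atg2b held 0 CCAAT matches and 3 GC boxes. Of all 32851 windows of this length, 33.9% held CCAAT and 32.7% GGGCGG. The letters CACGTG, the core of the sites read by the autophagy regulator TFEB, were in 0 of the 12 windows of the 9 members listed and in 6.02% of all windows. A match is a description of letters, and Wdr45b had no entry.

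Hmgb1 itself was checked first. On its own dim probe set the deleted arrays read 4.91, 4.20, 4.53 and 4.74 and the controls 5.35, 5.42, 5.45 and 5.78 (log2 intensity), a fall of 0.91 (limma adjusted p = 0.0216). This call was lost when every probe set was tested (adjusted p = 0.0652) and when deleted 3 (0.0730), deleted 4 (0.0687), floxed control 3 (0.0561) or floxed control 4 (0.0797) was left out. On 34 probe sets that Hmgb1 shares with other genes the median was 7.11 to 7.35 in deleted and 9.12 to 9.47 in control arrays. Floxed control 1 stood apart from all other arrays, at −26.6 on the first principal component against −11.4 to 11.7. It was the lowest of the 4 controls for all 10 members. The mean of the members on it lay 0.27 below the control mean, whereas deleted 1 lay 0.041 below it and the other 6 arrays 0.066 to 0.13 above it. Main values of the members, and of some other genes, are therefore given with and without floxed control 1 where it matters.

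None of the 10 members passed the threshold of 0.05 after Benjamini-Hochberg adjustment over all genes (limma, 0 of 10), where 0.692% of the 19938 genes did. At an unadjusted p under 0.05 there were 2 members, Atg2a with the higher and Wdr45 with the lower level in deleted livers. Over all genes 9.46% had such a p. Among genes brighter than the median gene, which held all 10 members, 14.3% had such a p. When only those brighter genes were tested, 1.62% passed the threshold and again 0 members did. Wdr45 was the 1 member whose groups did not overlap, which was so for 5.57% of all genes in either direction and for 2.30% as lower in deleted livers.

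Atg2a encodes one of the pair of bridge-like lipid transfer proteins. Its log2 intensities were 8.64, 8.83, 8.92 and 8.77 in deleted livers and 8.27, 8.64, 8.50 and 8.50 in controls. The groups touched at 8.64, which was the lowest deleted and the highest control value. The means were 8.79 ± 0.12 (SD, n = 4) and 8.48 ± 0.15 (SD, n = 4). The log2 fold change was 0.31 (95% interval 0.12 to 0.51), a ratio of 1.24 with limits of 1.08 and 1.42 (limma adjusted p = 0.191). Without floxed control 1 it was 0.24 (0.074 to 0.41).

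Atg2b encodes the other ATG2 protein. It read 8.25, 8.46, 8.56 and 8.49 in deleted and 8.26, 8.52, 8.58 and 8.54 in control livers. The ranges nearly coincided, and in each group array 1 was the low one. Deleted minus control, its log2 fold change was −0.035 (95% interval −0.23 to 0.16; limma adjusted p = 0.991). The dimmer of its probe sets gave 0.048 (−0.16 to 0.26), and the mean of both 0.00625, so that its sign depends on the probe set while both intervals include 0. Without deleted 1 it was 0.028 and without floxed control 1 it was −0.11.

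Atg9a encodes the transmembrane protein of the vesicles that seed the phagophore. It read 9.13, 9.38, 9.39 and 9.31 in deleted and 9.02, 9.18, 9.26 and 9.17 in control livers. Deleted 2, 3 and 4 lay above every control, and deleted 1 lay below 3 of them. This gave a log2 fold change of 0.15 (95% interval −0.027 to 0.32; limma adjusted p = 0.667). Without floxed control 1 it was 0.099 (−0.065 to 0.26). The interval lay above 0 in 5 of the 18 alternatives, among them without deleted 1 (0.040 to 0.36), and the lowest adjusted p of any alternative was 0.262. Its paralog Atg9b, a gene outside the member list, had a log2 fold change of 0.083 (−0.095 to 0.26).

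Vmp1 encodes a scramblase of the endoplasmic reticulum, a protein that flips lipids between leaflets. It read 9.91, 10.04, 9.93 and 9.83 in deleted and 9.67, 9.99, 9.96 and 9.92 in control livers. Apart from floxed control 1 the controls lay inside the range of the deleted arrays. The log2 fold change was 0.043 (95% interval −0.14 to 0.22; limma adjusted p = 0.975), and −0.029 (−0.17 to 0.11) without floxed control 1.

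Tmem41b encodes the related scramblase. It read 9.54, 9.41, 9.35 and 9.43 in deleted and 8.77, 9.40, 9.67 and 9.46 in control livers. The controls were scattered around the deleted arrays, with floxed control 1 far below and control 3 above them. That probe set gave a log2 fold change of 0.11 (95% interval −0.24 to 0.45; limma adjusted p = 0.970) and −0.078 (−0.25 to 0.095) without floxed control 1. A second, dimmer probe set of Tmem41b read 7.42 to 7.65 in deleted and 7.43 to 7.54 in control livers, and on it floxed control 1 was the highest control. Its log2 fold change was 0.060 (−0.086 to 0.21), so both probe sets had intervals that include 0 but they placed floxed control 1 at opposite ends. The genome position of each probe set was not checked, so whether the brighter one reads Tmem41b alone is not known.

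**Figure D1:**
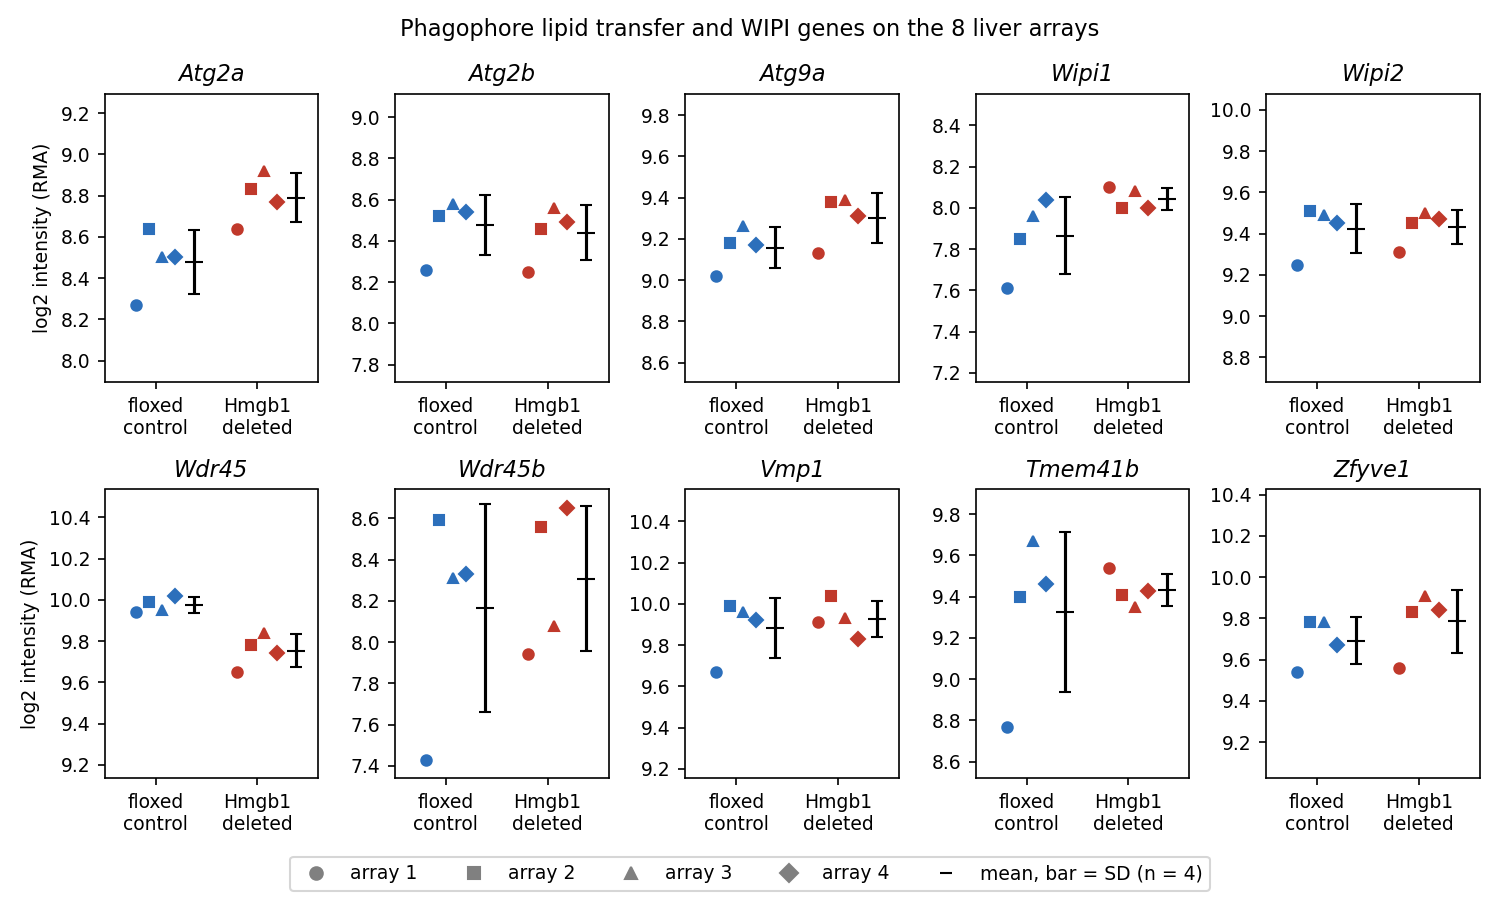
Log2 intensity (vertical axis, RMA; each panel spans the same height) of the 10 members on the 4 floxed control (blue) and 4 Hmgb1 deleted (red) arrays, with symbols for the array number and black bars for the mean and SD. Floxed control 1, the blue circle, is the lowest control in every panel, and only Wdr45 has groups that do not overlap.

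Among the WIPI genes, Wdr45 encodes WIPI4, the partner of ATG2 whose human gene is mutated in a neurodegenerative disease with brain iron. Its log2 intensities were 9.65, 9.78, 9.84 and 9.74 in deleted livers and 9.94, 9.99, 9.95 and 10.02 in controls. All 4 deleted arrays lay below all 4 controls, and floxed control 1 lay close to the other controls. The means were 9.75 ± 0.080 (SD, n = 4) and 9.98 ± 0.037 (SD, n = 4). The log2 fold change was −0.22 (95% interval −0.36 to −0.088), a ratio of 0.857 with limits of 0.781 and 0.941 (limma adjusted p = 0.174). Without floxed control 1 it was −0.23 (−0.37 to −0.094).

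Wdr45b encodes WIPI3, its closest relative. It read 7.94, 8.56, 8.08 and 8.65 in deleted and 7.43, 8.59, 8.31 and 8.33 in control livers. Arrays within a group differed by up to 1.16 on the log2 scale. This spread gave the widest interval of the 10 members, −0.38 to 0.66 around a mean of 0.14 (limma adjusted p = 0.971). Without floxed control 1 the value was −0.10 (−0.46 to 0.25), and without control 2 it was 0.28.

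Wipi1 and Wipi2 encode the other pair of PI3P-binding propellers. Wipi1 read 8.10, 8.00, 8.08 and 8.00 in deleted and 7.61, 7.85, 7.96 and 8.04 in control livers. The deleted arrays were close together and only control 4 reached into their range. Its log2 fold change was 0.18 (95% interval −0.016 to 0.38; limma adjusted p = 0.608), and 0.095 (−0.050 to 0.24) without floxed control 1. Wipi2 read 9.31, 9.45, 9.50 and 9.47 in deleted and 9.25, 9.51, 9.49 and 9.45 in control livers. The groups had nearly the same range, and its log2 fold change was 0.0075 (−0.16 to 0.17; limma adjusted p = 0.996).

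Zfyve1 encodes DFCP1, a PI3P-binding protein that marks the endoplasmic reticulum site where phagophores arise. It read 9.56, 9.83, 9.91 and 9.84 in deleted and 9.54, 9.78, 9.78 and 9.67 in control livers. Array 1 was the lowest in both groups, and the other deleted arrays lay above all controls. The log2 fold change was 0.093 (95% interval −0.10 to 0.29; limma adjusted p = 0.921), and 0.042 without floxed control 1.

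The intervals give the size of difference that these arrays allow. For 9 of 10 members the 95% interval lay within 1.5-fold either way, as for 97.2% of all genes, and for 10 of 10 within 2-fold. Wdr45b was the exception, with an upper limit of 1.58-fold. Within 1.25-fold lay 5 members, Atg2b, Atg9a, Wipi2, Vmp1 and Zfyve1, against 76.9% of all genes. All genes include many dimmer than any member, and RMA compresses differences of dim probe sets. The median log2 fold change of the members was 0.10 with 8 higher and 2 lower, against a median of 0 over all genes. Without floxed control 1 the median was −0.040, with 4 higher and 6 lower, so the side on which most members lay rested on that array.

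**Figure D2:**
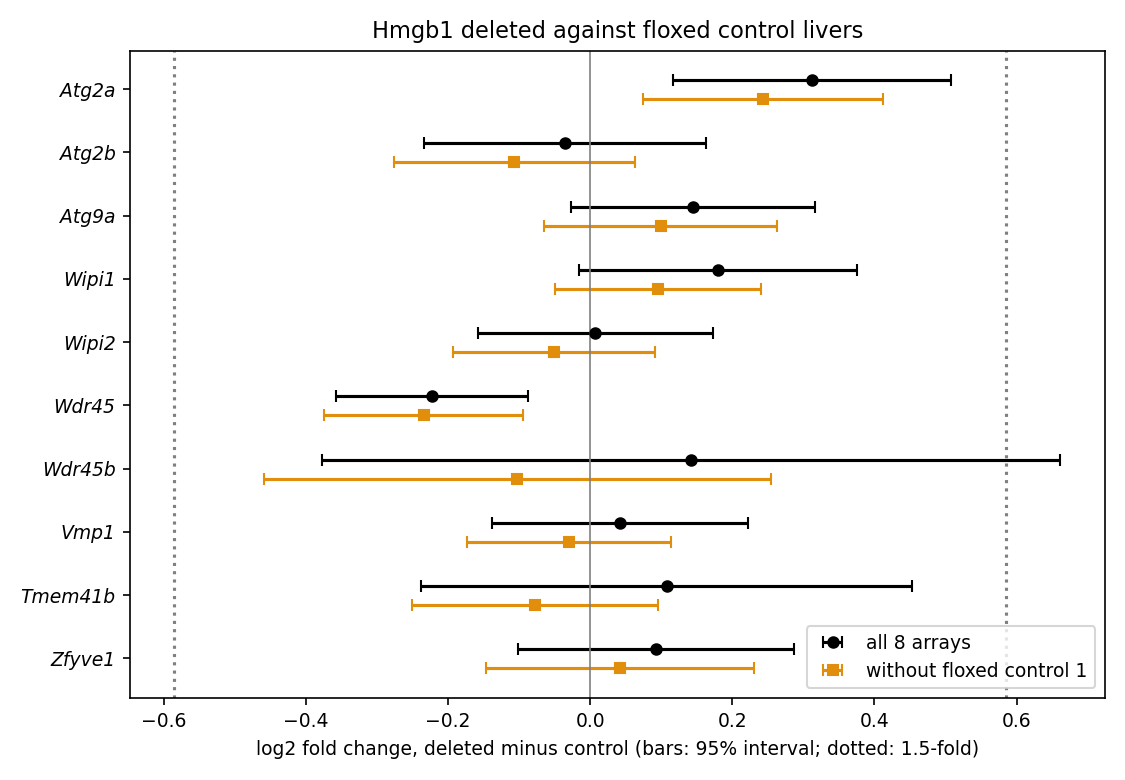
Log2 fold change of each member, deleted minus control (horizontal axis), with 95% intervals from limma over all 8 arrays (black circles) and without floxed control 1 (orange squares); dotted lines mark 1.5-fold. Only the intervals of Atg2a and Wdr45 exclude 0, with and without that array, and only that of Wdr45b crosses a dotted line.

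Related members were then compared with each other on the same array, which removes a shift that both share. The 2 probe sets differ in brightness for reasons other than RNA, so only the change of their difference between groups is read. For Atg2a minus Atg2b the difference was 0.39, 0.37, 0.36 and 0.28 in deleted and 0.01, 0.12, −0.08 and −0.04 in control livers. On these probe sets the groups did not overlap, and floxed control 1 lay among the other controls. The difference was 0.35 higher in deleted livers, with SDs of 0.048 and 0.087 (n = 4 each; exact 2-sided permutation p = 0.0286, the smallest that 4 against 4 can give). Adjusted over the 4 pairs it was 0.114 and did not pass. With 4 against 4 arrays no pair could pass this adjustment alone, so the adjusted value cannot decide the question. It stayed between 0.32 and 0.39 when any 1 array was left out. With the mean of the 2 Atg2b probe sets it was 0.31. On the dimmer Atg2b probe set, deleted 4 read 8.44 and floxed control 2 read 8.31, beside 8.77 and 8.64 for Atg2a. With that probe set the difference was the same on both arrays, so the groups touched. The contrast with the dimmer probe set alone was not tested.

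For Wipi1 minus Wipi2 the difference was −1.39 ± 0.12 (SD, n = 4) in deleted and −1.56 ± 0.12 (SD, n = 4) in control livers, and the groups overlapped (exact permutation p = 0.114, adjusted 0.229). Wdr45 minus Wdr45b was 1.45 ± 0.34 (SD, n = 4) and 1.81 ± 0.48 (SD, n = 4), with overlap (exact permutation p = 0.286, adjusted 0.381), and the gap of −0.37 shrank to −0.13 without floxed control 1. Vmp1 minus Tmem41b, on the brighter Tmem41b probe set, was 0.50 ± 0.13 (SD, n = 4) and 0.56 ± 0.26 (SD, n = 4), with an exact permutation p of 0.714. The sign of the gap between groups turned without floxed control 1.

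**Figure D3:**
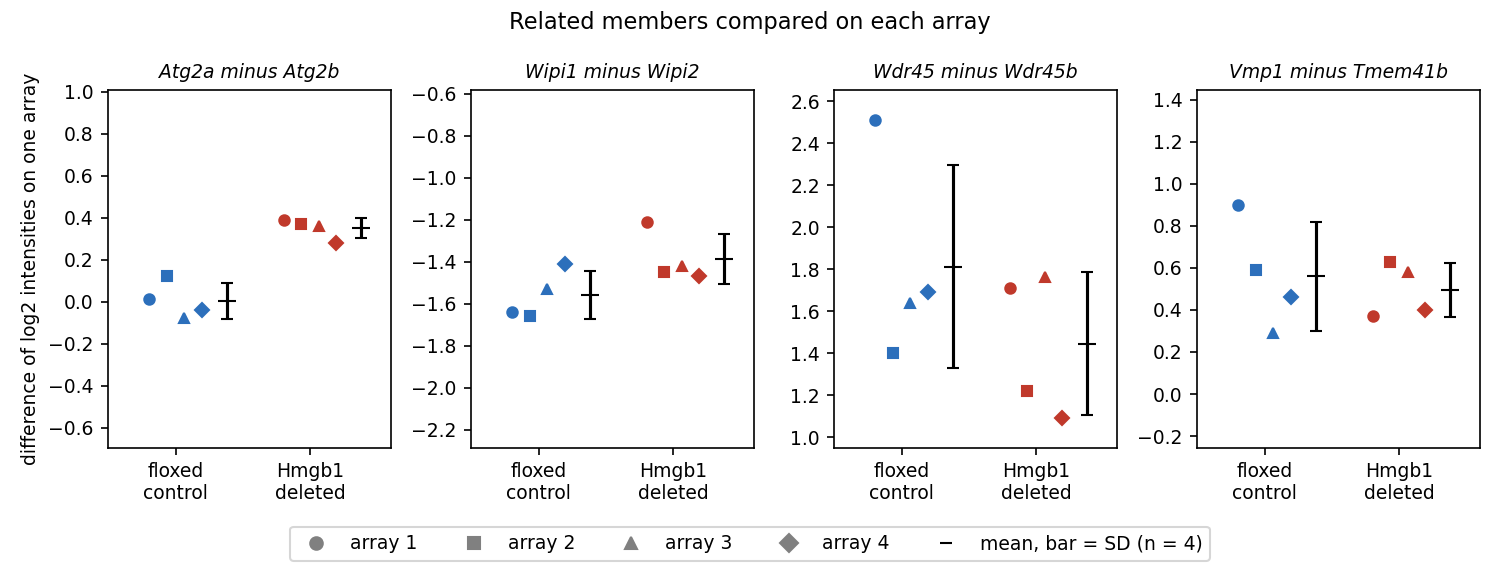
Difference of log2 intensities between 2 related members on each array (vertical axis; each panel spans the same height), for floxed control (blue) and Hmgb1 deleted (red) livers, with black bars for the mean and SD. For Atg2a minus Atg2b all deleted arrays, at 0.28 to 0.39, lie above all controls, at −0.08 to 0.12; the groups overlap in the other 3 panels.

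Other genes of the pathway were taken from 9 lists with 92 genes, all of them measured. None passed over all genes (limma, 0 of 92, against 0.692% of all genes), with 49 higher and 43 lower and a median log2 fold change of 0.014. The balance turned to 36 higher and 56 lower without floxed control 1 and to 38 and 54 with array weights. With both arrays numbered 1 left out it was 38 higher and 53 lower. At an unadjusted p under 0.05 there were 22 of 92, where 9.46% of all genes had such a p. Among genes brighter than the median gene there were 20 of 87, where 14.3% of all such genes had such a p. Groups did not overlap for 16, or 17.4%, where they did not for 5.57% of all genes. That share among brighter genes alone was not computed. The lists were chosen with earlier results of these data known, so these shares are a description only. The counts with an unadjusted p under 0.05 by list were 4 of 8 genes of the class III PI 3-kinase complexes, which make PI3P, 3 of 11 of the PI3P phosphatases and PIKfyve complex, which turn it over, and 1 of 5 of the initiation complex. They were 1 of 8 of the other bridge-like lipid transfer proteins, 0 of 2 of the TMEM41-related proteins, 3 of 16 of ATG9 vesicle trafficking, 5 of 16 of LC3 and GABARAP conjugation, 1 of 13 of autophagosome fusion and 4 of 13 of the TFEB family and mTORC1 control.

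Upstream of the WIPI proteins, Atg14, the subunit that sends the lipid kinase to autophagy, had a log2 fold change of −0.45 (95% interval −0.75 to −0.16). Pik3r4, the scaffold of that kinase, had 0.24 (0.061 to 0.42). Without floxed control 1 these were −0.56 (−0.81 to −0.31) and 0.185 (0.020 to 0.35). Without deleted 1 Atg14 had −0.34 (−0.59 to −0.083). Ulk1, the initiating kinase, had −0.30 (−0.53 to −0.068), and −0.19 without deleted 1. Its scaffold Rb1cc1, or FIP200, had −0.19 (−0.40 to 0.024), and −0.27 (−0.45 to −0.090) without floxed control 1. Fig4, of the complex that converts PI3P, had 0.31 (0.093 to 0.52) and its scaffold Vac14 0.26 (0.027 to 0.48). With floxed control 1 left out these were 0.20 (0.069 to 0.34) and 0.19 (−0.028 to 0.41).

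Among proteins related to ATG2, Vps13b had 0.25 (0.024 to 0.48) and Bltp3a, listed under its older symbol, 0.15 (−0.021 to 0.32). Tmem41a and Tmem64, relatives of Tmem41b, had −0.12 (−0.29 to 0.048) and 0.028 (−0.11 to 0.16). Of the ATG9 trafficking genes Tbc1d14 had 0.32 (0.12 to 0.52) and Trappc8, a subunit of a vesicle tether, 0.24 (0.031 to 0.45). With floxed control 1 left out Vps13b had 0.15 (−0.0096 to 0.30) and Trappc8 0.14 (0.0065 to 0.27).

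Downstream, Gabarapl1, an LC3 relative, had −0.33 (−0.49 to −0.17; limma adjusted p = 0.0827) and Atg7, the E1-like enzyme, 0.35 (0.18 to 0.52; 0.0827). Vps33a and Epg5, which act in fusion with lysosomes, had 0.20 (0.038 to 0.37) and 0.15 (−0.057 to 0.36). With floxed control 1 left out they had 0.14 (0.0080 to 0.27) and 0.11 (−0.10 to 0.32). Flcn encodes folliculin and Fnip1 its partner, and both regulate TFEB. Fnip1 had −0.44 (−0.65 to −0.23, limma adjusted p = 0.0827) and Flcn −0.37 (−0.57 to −0.17, limma adjusted p = 0.124). Single settings brought up to 7 of the 92 genes past the threshold, 3 of them (Atg14, Gabarapl1 and Fnip1) without floxed control 1 alone. Under the 18 alternatives tried, 0 of 10 members passed.

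**Figure D4:**
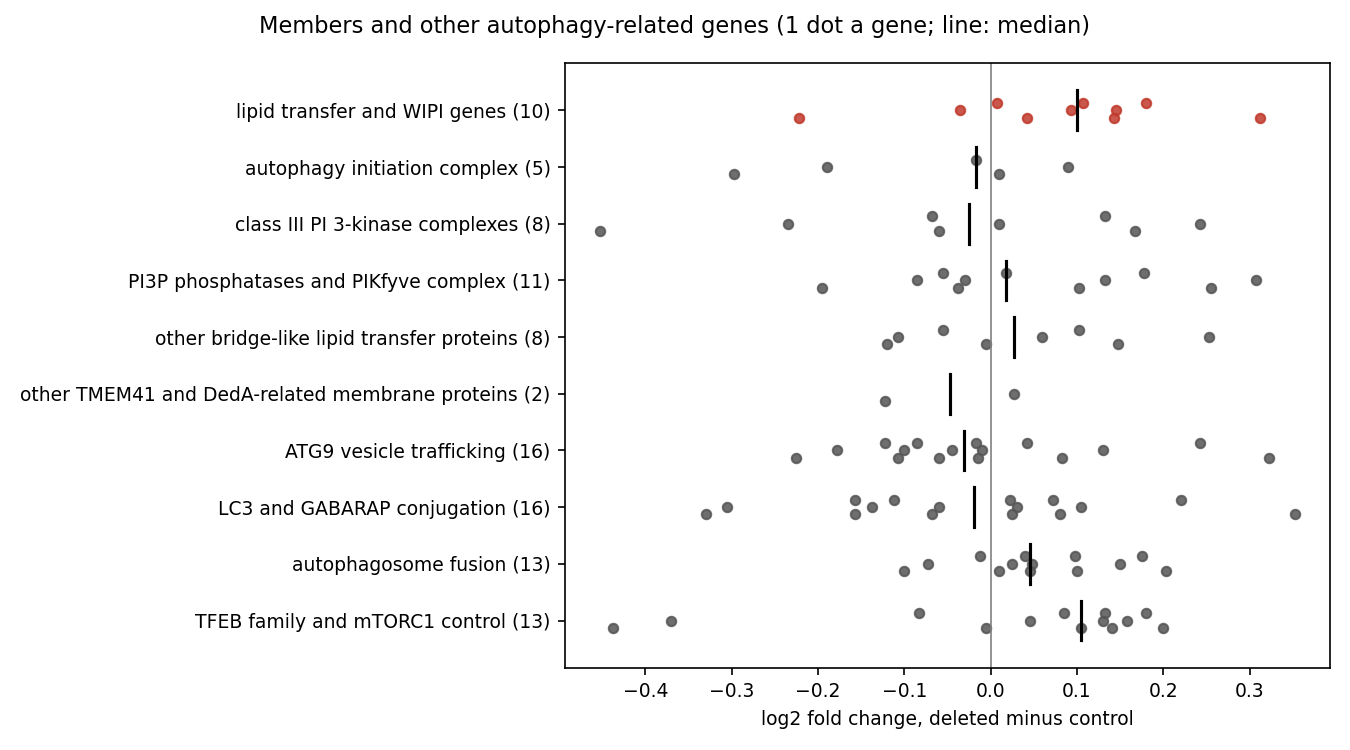
Log2 fold change, deleted minus control (horizontal axis), of the 10 members (red) and of the genes of 9 other autophagy-related lists (grey), 1 dot a gene with the number of genes in brackets and a black line at the median. Members run from −0.22 to 0.31 and the other 92 genes from −0.45 to 0.35, and 0 of these genes passed the threshold.

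Cell type markers were read beside these values. Hepatocyte markers (9 of 10 measured) had a mean log2 intensity per array of 12.74 to 13.15 in deleted and 13.15 to 13.25 in control livers, with 8 of 9 lower and 1, the tryptophan dioxygenase Tdo2, past the threshold. Sinusoidal endothelial markers (8 of 8) had 8.92 to 9.03 and 9.19 to 9.33, with 8 lower and 1, the lectin Clec4g, past the threshold (log2 fold change −0.62, limma adjusted p = 0.00628). Markers of macrophages (8 measured; brightest Vsig4), stellate cells (10; Dcn), cholangiocytes (5; Sox9), lymphocytes (7; Cd3e), neutrophils (6; Mpo) and erythroid cells (3; Alas2) held 0 genes past the threshold. Macrophage, stellate, lymphocyte, neutrophil and erythroid means overlapped between groups, the last at 7.15 to 7.26 in deleted and 7.24 to 7.53 in control livers. Cholangiocyte means did not, but only just, at 5.682 to 5.916 in deleted and 5.922 to 5.986 in control livers. Of these 5 markers 3 were lower and 2 higher, with the largest fall in Sox9 (log2 fold change −0.35). All neutrophil markers, 6 of 7 lymphocyte and 4 of 5 cholangiocyte markers were dimmer than the median gene. Deleted 4 differed from the other arrays among bright probe sets. On it the hepatocyte marker albumin read 13.26, against 13.93 to 14.03 on the other deleted arrays and 13.95 to 14.01 in controls. The highest value of any probe set was 13.58 on deleted 4 and 14.23 to 14.46 on the other arrays. Hepatocyte marker means without deleted 4 were not computed. The part of cell makeup in the values of Atg2a and Wdr45 was not tested.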

How the data were processed

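RNA of 8 liver samples was measured on Affymetrix Mouse Gene 1.0 ST arrays. The values deposited by the authors are log2 intensities made with RMA, per the submitters' processing notes, which corrects background, normalizes between arrays and sums probes to probe sets; its version and the genome build were not given in the sources used here. RMA compresses differences of dim probe sets. Of 35556 probe sets, 21789 had 1 gene symbol, 1621 several and 12146 none; genes were named from the first kind only, by the brightest probe set where a gene had several (999 genes). Atg2b and Tmem41b had 2 probe sets each.

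All 19938 genes were fitted with limma 3.58.1 in R 4.3.3 (lmFit, eBayes, 2-sided, no covariate) with Benjamini-Hochberg adjustment over all of them at 0.05. Differences are deleted minus control, with moderated 95% intervals. Related pairs were compared by exact permutation over arrays. Members and lists were chosen with earlier results of these data known. All members were named, and of each other list the genes past the threshold, the 2 with the smallest p, and Atg9b; of each marker list, the brightest gene. Whether each array is another mouse is not stated, and p-values then cover only the spread between these samples, which may be technical; the number of arrays limits precision. Scripts were tested on simulated data. Alternatives were a filter on dim genes, the mean of probe sets, all probe sets, quantile normalization again, median centring, a variance trend, a robust prior, array weights, a block for the replicate number and each array left out; leaving out both arrays numbered 1 was chosen after seeing the data. Promoters are from RefSeq (GRCm38.p6), with 9 of 10 members matched. Python 3.11.15 and matplotlib 3.10.9 drew the figures.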

Additional observations from a re-analysis of the deposited data

Results flagged for a closer look

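In 66 groups of 4 values, 5 held 1 array far from the other 3, where chance gives about 1 in 20, or 3.3. None was a member. Floxed control 1 read 8.35 for Vps13b, against 8.77 to 8.78 on the other controls, and 7.60 for Trappc8, against 7.99 to 8.04. Deleted 1 read 7.37 for Atg14, against 7.81 to 7.89 on the other deleted arrays, and 8.61 for Vac14, against 8.91 to 8.93. Floxed control 4 read 8.56 for Flcn, against 8.47 to 8.48.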

How the results depend on the processing

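Over the 18 alternatives the count of members past the threshold stayed at 0, and Atg2a (0.24 to 0.37), Atg9a, Wipi1, Zfyve1 and Wdr45 (−0.25 to −0.19) kept their direction. The lowest adjusted p was 0.0525 for Atg2a (replicate block) and 0.0503 for Wdr45 (array weights). The sign of small values turned: Atg2b to 0.00625 with the mean of its probe sets; Wipi2 to −0.024, Tmem41b to −0.050 and Tmem64 to −0.0057 with array weights; and, with both arrays numbered 1 left out, Wipi2 to −0.010, Vmp1 to −0.023, Tmem41b to −0.11, Tmem64 to −0.017 and Vmp1 minus Tmem41b to 0.090. Leaving out 1 array gave −0.11 to 0.028 for Atg2b, −0.051 to 0.048 for Wipi2, −0.10 to 0.28 for Wdr45b, −0.029 to 0.078 for Vmp1, −0.078 to 0.22 for Tmem41b, −0.0092 to 0.058 for Tmem64, −0.16 to 0.048 for Vmp1 minus Tmem41b, −0.040 to 0.15 for the median of the members, 0 to 3 called genes of the other lists and 37 to 321 called genes in all. The count over all genes was 264 after quantile normalization again, 61 with centred arrays, 526 with array weights, 325 with the replicate block and 366 with both arrays numbered 1 left out. For the other lists it was 3, 0, 7, 3 and 4. Where a value moved, the cause was not tested.

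The shared replicate numbers matched the arrays only in part. Deviations of same-numbered arrays correlated across genes at 0.447 for number 1, 0.0652 for 2, −0.0814 for 3 and 0.422 for 4. For numbers 1 and 4 the array most like each in the other group had the same number. For numbers 2 and 3 it did not. Whether the numbers mark a batch was not tested. With the replicate block 0 of 10 members passed, and the Atg2a minus Atg2b difference of 0.35 had an exact sign-flip p of 0.125, the smallest that 4 pairs allow. Wide intervals, as for Wdr45b, limit what these 8 arrays can show.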
